A study of Mus musculus with 2 samples.

Results

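The zinc finger protein genes described here are the mouse genes with a symbol of Zfp and a number, a coding transcript and a level of at least 3 TPM in the nuclear RNA of macrophages. TPM is a length-corrected share of all transcripts in a library, scaled to the same total in each. Of 417 genes with such a symbol, 394 had a transcript typed as coding, and Zfp36, Zfp36l1 and Zfp36l2, which belong to a separate family of mRNA decay factors, were left out. Of the 391 that remained, 136 were selected on the measured mean TPM of the libraries, so their number and levels describe the choice and carry no test. They are called members below and made up 34.8% of the coding Zfp genes, beside 32.7% of all 21901 coding genes at the same minimum. The gene tables held 55536 genes in all.

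Macrophages had been grown from the bone marrow of C57BL/6J mice. A first exposure to Lipid A, the TLR4-binding core of bacterial endotoxin, lasted 12 h at 100 ng/ml. After a washout of 12 h came a second exposure of 120 min at the same 100 ng/ml. RNA of the nuclear fraction, labelled both as nucleus and as nucleoplasmic, was depleted of ribosomal RNA and sequenced in 2 biological replicates of this single condition, which carry the same donor label, so their spread may be technical in part. Replicate 1 started from 1 µg of RNA and had 28450309 expected counts on genes, and replicate 2 started from 500 ng and had 16940220. Input amount, depth and replicate cannot be told apart. Untreated or once-treated cells and other fractions were not analysed here, so nothing below shows an effect of Lipid A. All 6 macrophage markers were present, with a median of 179 TPM in each library, led by the lysozyme gene Lyz2 at 1300 and 1229 TPM. Of 12 markers of other cells, 11 were below 1 TPM in both libraries, the exception was the erythroid gene Alas2 at 0.84 and 1.77 TPM, and the sum of all 12 was 1.80 and 2.65 TPM. Cd3e, Cd79a and Ly6g, markers of T cells, B cells and neutrophils, were listed at 0 TPM.

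A C2H2 zinc finger is a short fold in which a pair of cysteines and a pair of histidines hold a zinc ion, and tandem arrays of such fingers read DNA sequence. In many mammalian zinc finger proteins the array is preceded by a KRAB domain, which recruits the corepressor TRIM28 and with it the histone methyltransferase SETDB1 and HP1 proteins, and much of this family silences retroelements. Others carry a SCAN domain, which pairs proteins, or no such domain, and several of these bind RNA or act at ribosomes, splicing or the spindle. KRAB genes have multiplied in clusters, so that neighbours are often near copies.

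To show the unit that these genes share, the coding DNA of the fourth finger is given for 4 highly expressed members, from GENCODE M21 transcripts (mm10), with the codons of the cysteines and histidines matched by the finger's spacing pattern in capitals. In Zfp445 the histidine codon just before the last capitals also fits that pattern. The stretch of Zfp263 lies at chr16:3749296-3749358 on the plus strand, that of Zfp445 at chr9:122853063-122853128 on the minus strand, that of Zfp871 at chr17:32775303-32775365 on the minus strand and that of Zfp991 at chr4:147179143-147179205 on the plus strand.
Zfp263: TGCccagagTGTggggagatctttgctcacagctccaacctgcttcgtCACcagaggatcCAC
Zfp445: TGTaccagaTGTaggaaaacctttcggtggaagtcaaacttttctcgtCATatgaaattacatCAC
Zfp871: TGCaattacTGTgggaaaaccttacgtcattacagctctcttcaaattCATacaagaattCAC
Zfp991: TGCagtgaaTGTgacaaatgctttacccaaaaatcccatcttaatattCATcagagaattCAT
Each stretch sits in 1 exon. Counted by the same cysteine and histidine spacing in the longest coding transcript, the members held 0 to 36 fingers, with a median of 9. The 65 members with a KRAB domain in a coding transcript had a median of 12 fingers and the 71 others a median of 7. Those with the most were Zfp142 with 36, Zfp236 with 30 and Zfp646 with 27. Zfp330 and Zfp703 had 0 that fit the spacing, and Zfp326 had 1. The number of fingers and the level were nearly unrelated across members (Spearman's rho -0.07, n = 136).

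Zfp263, which encodes a DNA-binding factor, was the most abundant member, with 95.7 TPM in replicate 1 and 109 TPM in replicate 2 (103 ± 9.68, SD, n = 2). The profile search described below found its SCAN domain but no KRAB domain, and a domain that the search missed counts as absent. Zfp263 stood well above the rest in both libraries. Zfp207, whose product BuGZ binds microtubules and the checkpoint protein BUB3 at the spindle, had 37.0 and 79.8 TPM (58.4 ± 30.3). Zfp638, which encodes the nuclear matrix protein NP220 that binds RNA and silences retroviral DNA, had 25.4 and 58.1 TPM (41.7 ± 23.2). In both, TPM was far higher in replicate 2, where 84.0% of the other coding genes at the minimum were higher too. On TPM rescaled as described below, Zfp207 had 177 and 262 and Zfp638 121 and 191. Zfp263 then had 458 and 359, so its direction changed. Zfp445, a KRAB and SCAN gene that helps to keep imprints, had 29.5 and 42.4 TPM (36.0 ± 9.12). Zfp800 followed with 31.0 and 40.4 TPM, Zfp871 with 20.2 and 36.3, and Zfp62 with 18.2 and 32.5. Zfp445, Zfp800 and Zfp871 overlap in level once this spread is considered, so the order of their means is not settled. Within each library Zfp871 was the lowest of them, while Zfp445 and Zfp800 swapped places. Zfp281, which encodes a factor of GC-rich promoters, had 20.9 and 28.6 TPM. Zfp407 had 12.9 and 30.2 TPM and the KRAB gene Zfp991 16.1 and 26.5. These 10 were the members at 20 TPM or more, and 3 of them were KRAB genes by the profile search. Below them came Zfp160, Zfp644, Zfp655, Zfp280d and Zfp993, with means from 19.6 down to 16.7 TPM.

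**Figure D1:**
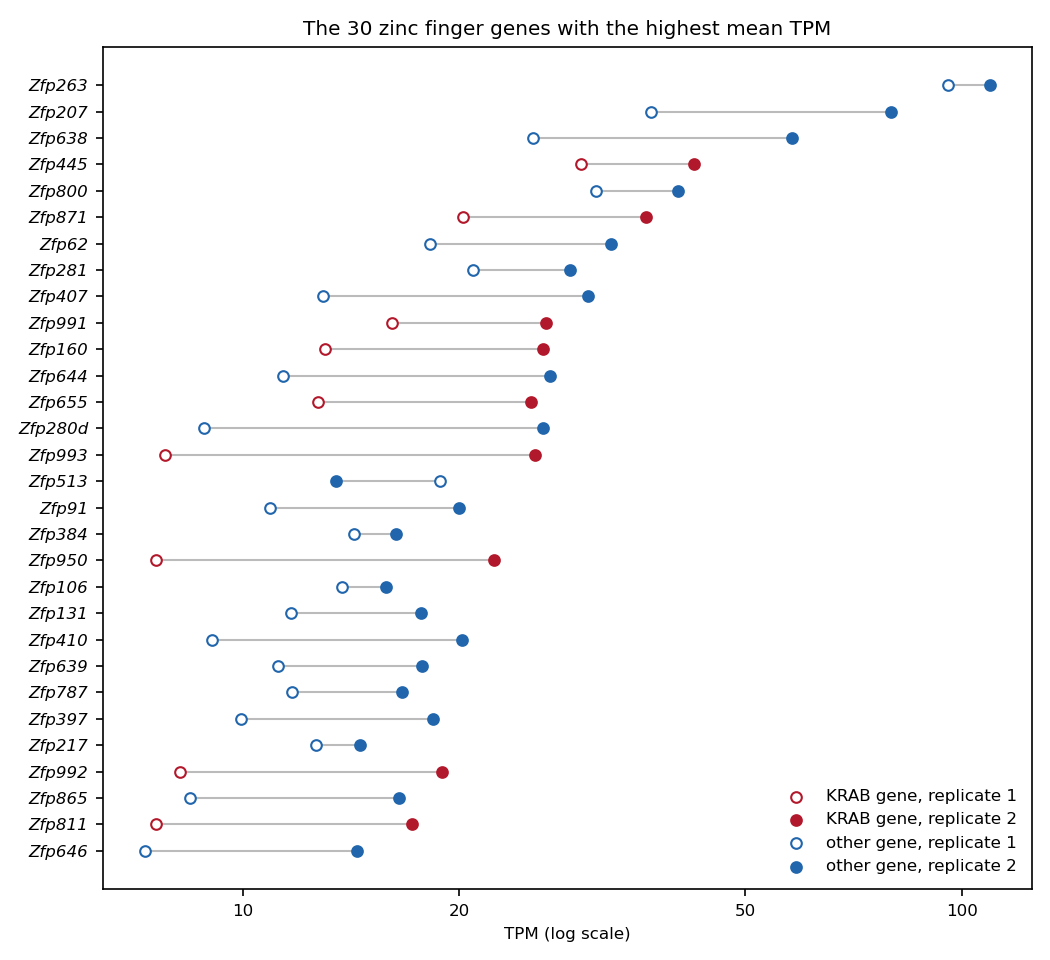
TPM (log axis) of the 30 members with the highest mean in replicate 1 (open points) and replicate 2 (filled points), KRAB genes in red and others in blue. The filled point lies to the right in all but Zfp513, which had 18.8 TPM in replicate 1 and 13.5 in replicate 2.

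Most members were far lower. There were 24 at 10 to 20 TPM, 51 at 5 to 10 and 51 at 3 to 5. The median member had 6.13 TPM (4.08 in replicate 1 and 8.11 in replicate 2), beside 10.9 TPM for the 7033 other coding genes at the minimum. Together the members took 0.514% of all counts in replicate 1 and 0.650% in replicate 2. Just inside the minimum lay Zfp653 at 3.14 TPM, Zfp995 at 3.10, Zfp597 at 3.07, Zfp970 at 3.06 and Zfp846 at 3.04. Just outside lay Zfp944 at 2.99 TPM, Zfp169 at 2.93, Zfp280c and Zfp219 at 2.89 and Zfp568 at 2.89. No gap in level separates these genes. A further 98 coding Zfp genes had means of 1 to 3 TPM, 157 were below 1, and 38 of these had 0 counts in both libraries. In replicate 1 alone 34 members were below 3 TPM and in replicate 2 none was, so those 34 passed through replicate 2. In RNA from many cells, a lower level may mean fewer cells with the transcript or less of it per cell, and these cannot be told apart. When TPM was rescaled to sum to the same total over genes with an effective length of 200 nt or more outside the mitochondrial genome, the members' median was 23.7 and 245 coding Zfp genes reached 3, since the rescaling leaves short and mitochondrial RNAs out of the total.

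Of 11 listed genes with roles in RNA and translation 10 were members, beside 34.8% of all coding Zfp genes, and the list was drawn up with levels known. In the comparison of libraries given below, 3 of the 11 were higher in replicate 2, 2 were lower and 6 had no call. Of all genes tested 29.7% were higher and 30.2% lower, so these counts lie near or below that background. Beside Zfp207 and Zfp638, Zfp106, which encodes an RNA-binding protein needed in motor neurons, had 13.8 and 15.9 TPM. Zfp326, a subunit of the DBIRD complex that couples elongation to splicing, had 5.43 and 15.1 TPM. In TPM the replicates were closer in Zfp106 than in Zfp326. In the comparison on scaled counts both differed: Zfp106 was lower in replicate 2, with a log2 ratio of -0.37, and Zfp326 higher, with 0.90. Zfp622, a ribosome biogenesis factor, had 5.84 and 9.98 TPM. Zfp598, the ubiquitin ligase that marks collided ribosomes, had 4.56 and 6.79 TPM. Zfp830, a splicing factor, had 5.01 and 6.63 TPM. All 3 were higher in TPM in replicate 2, as most genes were. Zfp385a had 5.91 and 5.57 TPM, Zfp346, which binds double-stranded RNA, 3.28 and 5.56, and Zfp706 3.24 and 4.38. The exception was Zfp593, a ribosome biogenesis factor, at 0.69 and 1.31 TPM.

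Of 26 listed genes for transcription and chromatin, 19 were members, 8 of the 25 tested were higher in replicate 2 and 9 were lower, close to the 29.7% and 30.2% of all genes. Zfp644, which partners the histone methyltransferases G9a and GLP, had 11.4 and 26.7 TPM. Zfp91, which encodes a ubiquitin ligase of the non-canonical NF-kB route, had 10.9 and 20.0 TPM. Both were higher in replicate 2 by the count test as well. Zfp384 had 14.3 and 16.3 TPM, Zfp217, a corepressor partner, 12.7 and 14.6, and Zfp131 11.7 and 17.7. Zfp410, an activator of the remodeller gene Chd4, had 9.08 and 20.2 TPM, and Chd4 itself 49.9 and 58.0. Zfp148, the relative of Zfp281, had 5.43 and 8.75 TPM, so Zfp281 was the higher of the pair in each library. Zfp143, an activator of many promoters and of small nuclear RNA genes, was lower, with 3.36 and 5.03 TPM. Zfp592 and Zfp687, partners in a complex with ZMYND8, had 3.69 and 6.66 TPM and 4.96 and 7.17 TPM, while Zfp532 of the same complex had 0.10 and 0.28. Zfp451, a SUMO ligase, had 3.59 and 11.3 TPM, and Zfp318, which controls the choice of IgD in B cells, 4.63 and 7.16. The other members in this list were Zfp516, Zfp703, Zfp110, Zfp335 and Zfp292, with means from 9.20 down to 3.20 TPM. The 7 that were no members ranged from Zfp219 at 2.89 TPM to Zfp711, which was listed at 0.

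No gene of the list with restricted tissues was a member. Zfp42 (the stem cell gene Rex1), Zfp683 (Hobit of resident T cells), Zfp423, Zfp521 and Zfp536 were listed at 0 TPM to 2 decimals in both libraries, and Zfp462 had 0.04 in each. Zfp750, a gene of the epidermis, had 0.55 and 1.77 TPM and was the only one of the 7 above 1 TPM in a library.

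Among genes known for imprints or retroelements, 3 of 7 were members. Zfp809, which recognises murine leukaemia proviruses, had 2.67 and 5.19 TPM, and Zfp932, which silences endogenous retroviruses, 3.76 and 10.9. Both were several times lower than Zfp445. Zfp57, the other keeper of imprints, had 0.04 and 0.09 TPM, on 3 counts in each library, far below Zfp445. Zfp568, a repressor of a placental Igf2 transcript, was just under the minimum with 2.07 and 3.70 TPM. Zfp819 and Zfp708 were below 1 TPM in both libraries. All 5 that could be tested were higher in replicate 2. So were 67.9% of KRAB genes with a Zfp symbol, 54.8% of all coding Zfp genes tested and 29.7% of all genes. By the authors' second transcript table, described below, Zfp445 was lower in replicate 2.

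By a profile search, 237 of the coding Zfp genes had a KRAB domain in a coding transcript and 154 had none found. At the minimum were 27.4% of the former and 46.1% of the latter. The 65 KRAB members had a median of 5.11 TPM (3.34 in replicate 1 and 7.05 in replicate 2) and the 71 others 7.09 (5.43 and 8.87). On the scale of log2(TPM + 1) the median of the KRAB members was 0.57 lower in replicate 1 and 0.29 lower in replicate 2 (mean difference -0.43 ± 0.19, SD, n = 2). The lower quartiles, 3.79 and 4.41 TPM, lie close because both sets start at the same minimum. The 10 highest KRAB members were Zfp445, Zfp871, Zfp991, Zfp160, Zfp655, Zfp993, Zfp950, Zfp992, Zfp811 and Zfp26. Zfp160 had 13.0 and 26.1 TPM, Zfp655 12.7 and 25.2, Zfp950 7.57 and 22.4 and Zfp26 7.28 and 13.2. In all of these replicate 2 was higher on this scale.

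A gene with a KRAB domain need not put it into its RNA. In the median KRAB member 63.3% of the TPM (61.0% in replicate 1 and 66.1% in replicate 2) was on coding transcripts with both the domain and fingers. This share was over 50% in 44 of the 65 members and 100% in 13, among them Zfp991, Zfp992, Zfp811, Zfp966 and Zfp984. Where the annotation holds a single transcript, as in Zfp992 and Zfp869, no other share than 100% was possible. In genes with few transcripts the share thus depends on the annotation. Zfp655 went the other way: 51.3% ± 2.59 (SD, n = 2) of its TPM lay on a transcript with 6 fingers and no KRAB domain and 37.0% ± 10.7 on a transcript with the domain and no finger. Zfp426 had 63.5% ± 14.7 and Zfp788 50.6% ± 16.4 on transcripts with fingers alone, and these were the 3 members with over 50% there. Zfp932 had 34.6% ± 9.12 on transcripts with both parts and 28.8% ± 4.54 on transcripts with fingers alone. Zfp968 had all of its TPM on a transcript with the domain and no finger, and Zfp945 only 11.8% in replicate 1 and 8.17% in replicate 2 on transcripts with both parts. Shares of transcripts within a gene are model estimates, and several differed between the replicates by more than 10 percentage points.

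**Figure D2:**
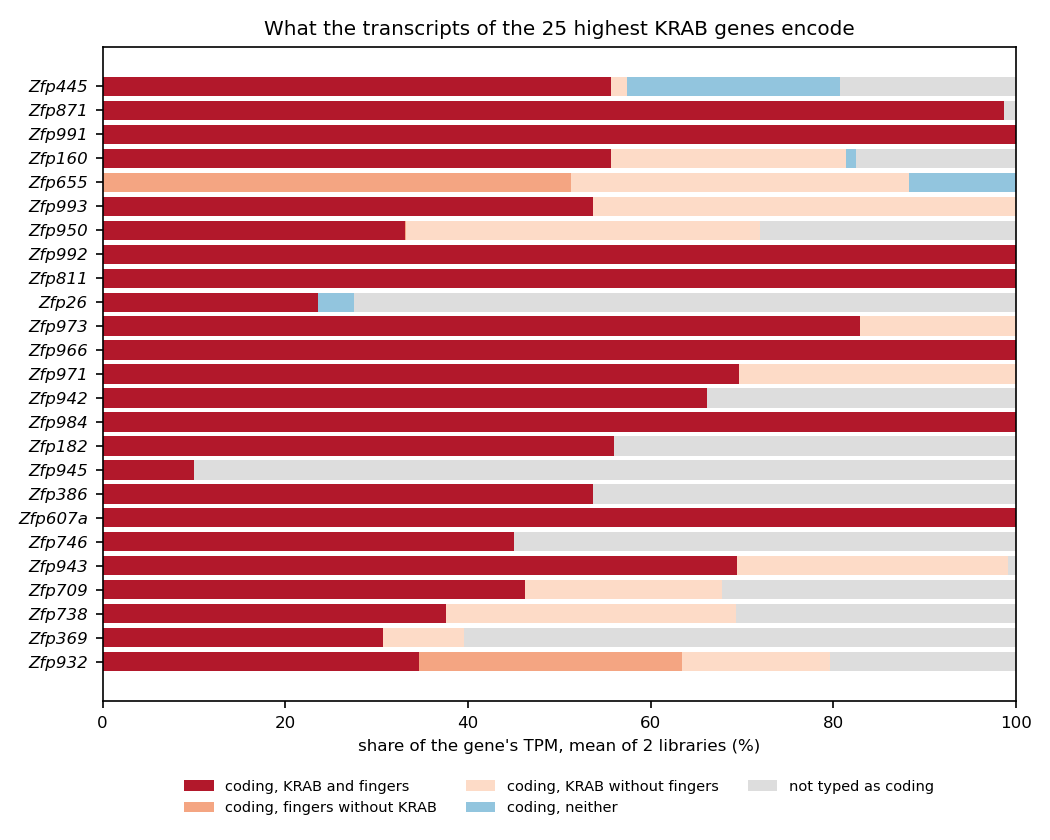
Bars give the share of each gene's TPM (mean of 2 libraries, in %) by what its transcripts encode, for the 25 KRAB members with the highest TPM. Zfp871, Zfp991, Zfp992 and Zfp811 are almost all dark red (KRAB and fingers), while Zfp655 has no dark red and Zfp945 is mostly grey (transcripts not typed as coding). Zfp992 has a single annotated transcript, so its bar could take no other form.

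The partners through which KRAB proteins silence chromatin were present. Of 33 listed genes, 31 had at least 1 TPM in both libraries and none was below 1 in both, with a median of 10.4 TPM (7.79 in replicate 1 and 13.1 in replicate 2). The corepressor Trim28 had 16.6 and 27.7 TPM and the methyltransferase gene Setdb1 5.89 and 10.7. The HP1 genes Cbx1, Cbx3 and Cbx5 had means of 10.1, 7.68 and 7.77 TPM. Each mean lay below that of Zfp445, the highest member in which a KRAB domain was found. Among the highest were the histone H3.3 chaperone gene Daxx with 106 and 86.1 TPM, the remodeller gene Chd4, Morc3 with 49.7 and 57.9, Atrx with 31.4 and 51.5, Ehmt2 (G9a) with 35.4 and 38.3, Sumo2 with 19.7 and 42.7 and Dnmt3a with 29.5 and 30.4. Daxx was the only one of these 7 with a higher TPM in replicate 1. Uhrf1, which guides maintenance methylation, was the lowest at 0.77 and 1.17 TPM, and Suv39h2 had 0.93 and 2.32. Between the libraries 15 of the 33 were higher in replicate 2 and 10 were lower, with a median log2 ratio of 0.04, where 29.7% and 30.2% of all genes tested were higher and lower. Setdb1, Cbx3 and Cbx5 were among the higher ones and Trim28, Chd4 and Daxx among the lower.

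Members were spread over 18 chromosomes, most of all on chromosome 7 with 29 and chromosome 17 with 17. Runs of at least 3 members, each within 500 kb of the next, numbered 10 and held 39 members. The longest, at chr17:21879570-23193252, held Zfp995, Zfp942, Zfp943, Zfp758, Zfp946, Zfp945 and Zfp40, with means from 3.10 to 8.94 TPM. All 7 are KRAB genes and all 7 were higher in replicate 2, with log2 ratios from 0.37 to 1.10, where 29.7% of all genes tested were higher. Zfp995, Zfp758, Zfp946 and Zfp40 were below 3 TPM in replicate 1, at 1.64, 2.16, 1.72 and 2.48, and so were members only through replicate 2. A second run on that chromosome, at chr17:32765496-33005457, held Zfp871, Zfp811, Zfp799 and Zfp952, and its levels were more uneven, from 3.69 to 28.3 TPM. The run at chr9:20428449-20605409 held Zfp26, Zfp426, Zfp266 and Zfp846, which are all of the coding Zfp genes in that interval. On chromosome 7, the interval chr7:29768552-30169750 held 15 coding Zfp genes, of which Zfp84, Zfp790, Zfp260, Zfp382 and Zfp146 were members, and the remaining 10 were below the minimum. A further chromosome 7 run held Zfp626, Zfp607a, Zfp974 and Zfp780b. The spread within a run thus ranged from the wide one of Zfp871 and its neighbours to narrower ones, such as 4.02 to 7.61 TPM in this last run.

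In some of these clusters the genes are so alike that their reads can be hard to assign. To measure this, each member's longest coding transcript was cut into all words of 50 bases, and words that occur on either strand in a transcript of another gene were counted. The share was 10% or more in 39 members, of which 21 were KRAB genes, and 50% or more in 8. It was 100% in Zfp968, whose words all occur in Zfp966, 89.5% in Zfp966, 88.4% in Zfp973, 86.8% in Zfp993, 86.7% in Zfp991, 55.5% in Zfp932, 54.6% in Zfp984 and 52.2% in Zfp970. These 8 levels rest largely on how the quantification split shared reads, and are uncertain. Zfp932 shared 52.3% of its words with the neighbouring family gene Gm15446. Zfp263, Zfp207, Zfp638, Zfp445 and Zfp809 shared none. Not all sharing comes from near copies. Zfp106 shared 25.1% of its words with Gm26899 and Zfp335 16.2% with Pcif1, genes whose exons overlap theirs on the opposite strand. The 39 members thus mix near copies and overlapping genes, and the share in other coding genes was not counted.

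The likeness can be read from 1 finger of Zfp966 on chromosome 2, at chr2:175920881-175920943 on the minus strand, beside its closest match in the coding DNA of 3 other members of that chromosome. Capitals mark bases that differ from Zfp966.
Zfp966: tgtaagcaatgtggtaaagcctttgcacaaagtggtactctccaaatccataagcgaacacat
Zfp971: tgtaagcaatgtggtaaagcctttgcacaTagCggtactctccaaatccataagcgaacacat
Zfp973: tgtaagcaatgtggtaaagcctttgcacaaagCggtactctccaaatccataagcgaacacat
Zfp970: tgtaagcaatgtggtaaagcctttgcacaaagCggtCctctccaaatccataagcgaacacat
The stretch of 63 bases differs at 2 bases in Zfp971 (chr2:178033426-178033488), 1 in Zfp973 (chr2:176680707-176680769) and 2 in Zfp970 (chr2:177475367-177475429), all on the plus strand. On chromosome 4 the same was done for a finger of Zfp991 at chr4:147179227-147179289.
Zfp991: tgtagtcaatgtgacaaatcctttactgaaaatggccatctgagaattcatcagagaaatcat
Zfp992: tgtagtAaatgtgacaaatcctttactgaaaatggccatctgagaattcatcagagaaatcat
Zfp993: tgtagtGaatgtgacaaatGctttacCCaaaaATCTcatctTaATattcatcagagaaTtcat
Zfp984: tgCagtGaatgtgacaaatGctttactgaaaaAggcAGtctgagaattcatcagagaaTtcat
Here capitals mark bases that differ from Zfp991. Zfp992 (chr4:146466883-146466945, plus strand) differs at 1 base, Zfp984 (chr4:147754857-147754919, minus strand) at 7 and Zfp993 (chr4:146658028-146658090, plus strand) at 12, so the closest match is not equally close in every copy. Zfp992, Zfp993 and Zfp991 form the run at chr4:146449023-147180579, and all 3 had means over 13 TPM.

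The replicates were compared gene by gene on TMM-scaled counts by a binomial test, exact and two-sided, which sets library against library, not condition against condition, and covers counting error only. All 136 members passed the filter of a mean count of 10, and 131 had 100 or more. The log2 ratio of replicate 2 over replicate 1 is given relative to the median of all 14698 genes tested. By this test 80 members were higher in replicate 2 (58.8%) and 21 were lower (15.4%), where 29.7% of all genes tested were higher and 30.2% were lower. The remaining 35 had no call. The members' median log2 ratio was 0.31, beside -0.14 in the other coding genes at the minimum. Because some members passed the minimum only through replicate 2, the same was counted in the 102 that had 3 TPM or more in both libraries: 54 were higher (52.9%) and 21 lower, and of 6321 other coding genes held to the same rule 1431 were higher (22.6%) and 3162 lower. With no minimum at all, 170 of the 310 coding Zfp genes that could be tested were higher (54.8%) and 37 lower, beside 24.0% and 36.4% of 11023 other coding genes. The 6 macrophage markers, by contrast, were all lower in replicate 2, with a median log2 ratio of -0.815. Their part in the members' ratios was not tested. These shares describe 2 libraries and show no difference between conditions. In TPM 133 of the 136 members were higher in replicate 2, but so were 84.0% of the other coding genes, and the median of all tested genes on the log2(TPM + 1) scale was 0.43.

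KRAB genes accounted for much of this. Of the 65 KRAB members 50 were higher in replicate 2 and 3 lower, and of the 71 others 30 were higher and 18 lower. Their median log2 ratios were 0.52 and 0.14. Of the 65 KRAB members, those with 3 TPM or more in both libraries numbered 40, of which 30 were higher and 3 lower, and the rest passed only through replicate 2. With no minimum, 127 of 187 KRAB genes with a Zfp symbol were higher (67.9%) and 8 lower. The 24 KRAB genes at the minimum without a Zfp symbol were all higher. Their median was 2.36 TPM in replicate 1 and 9.42 in replicate 2, so many of them passed the minimum only through replicate 2. How far the minimum set that direction was not tested. The members with the largest ratios at a mean count of 100 or more were KRAB genes. Zfp971 had 161 counts in replicate 1 and 355 in replicate 2, a log2 ratio of 1.72 (exact binomial test, adjusted p = 1.32e-38), with 495 of its 1236 words shared with other genes. Zfp930 had 113 and 222 counts, a log2 ratio of 1.55, and shared almost no words with other genes. Zfp973, Zfp966 and Zfp846 followed at 1.46, 1.28 and 1.20, the first and second of these with over 88% of their words shared. All 5 had more counts in replicate 2, the library with fewer counts in all. Zfp971, Zfp973 and Zfp966 were above 3 TPM in replicate 1, at 3.22, 3.77 and 4.04. Zfp930 and Zfp846 were below 3 TPM there and so were members only through replicate 2. At the other end stood genes in which no KRAB domain was found. Zfp513 had 1786 and 566 counts, a log2 ratio of -1.08 (exact binomial test, adjusted p = 1.43e-58), Zfp516 3410 and 1369, a ratio of -0.74, and Zfp385a 593 and 243, a ratio of -0.71. Zfp444 and Zfp319 were at -0.63 and -0.57. Zfp263 had 14181 and 6435 counts and a ratio of -0.56, so its higher TPM in replicate 2 went with a lower scaled count.

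The GC content of the RNA moved with these ratios. Its median was 41.4% in KRAB members, 47.4% in other members and 49.1% in other coding genes. Across members the ratio fell with GC content (Spearman's rho -0.63, n = 136), as it did across all tested genes with a GC value (-0.47), which share the same libraries. Below 40% GC the median log2 ratio was 0.78 in 28 members and 0.76 in 1153 other genes. From 40 to 43% it was 0.46 in members and 0.37 in other genes, and from 43 to 46% it was 0.37 and 0.18. The gap was small from 46 to 49%, at 0.135 and 0.065, and from 49 to 52% members were no higher, at -0.125 and -0.108. From 52 to 55% it was -0.11 and -0.251, and at 55% or more it was -0.18 in 19 members and -0.46 in 2644 others. The medians of KRAB and other members were 0.78 and 0.78 below 40%, 0.55 and 0.42 from 40 to 43%, 0.37 and 0.34 from 43 to 46%, and 0.17 and 0.12 from 46 to 49%. From 49 to 52% they were -0.24 in 2 KRAB members and -0.12 in 7 others, from 52 to 55% -0.35 in 1 and 0.13 in 7, and at 55% or more 0.12 in 2 and -0.18 in 17. In each bin below 49% the KRAB median was level with or above that of the other members. In the bins above, which hold 5 KRAB members in all, it was lower from 49 to 55% and higher at 55% or more. Apart from KRAB members below 40%, every class has fewer than 20 members in a bin. Whether GC content, RNA input or another property of the libraries sets the ratios was not tested.

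**Figure D3:**
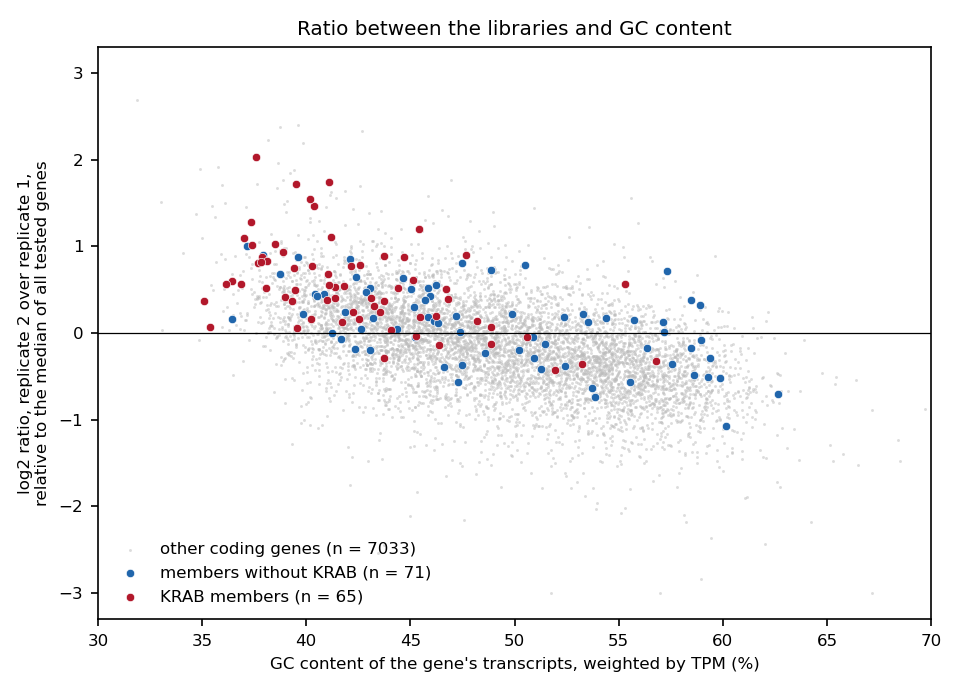
The log2 ratio of replicate 2 over replicate 1, relative to the median of all tested genes, against GC content (in %) of the gene's transcripts, for KRAB members (red), other members (blue) and other coding genes at the minimum (grey, values beyond 3 drawn at 3). Red points gather at low GC content and high ratios, with a median of 41.4% and 0.52, and lie within the grey cloud for the most part.

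The authors' second transcript table changed the counts of calls. With its estimated counts, scaled in the same way, 53 members were higher in replicate 2 and 50 were lower, and the median log2 ratio relative to all genes tested was -0.024. That reference moved too: the median of the other coding genes at the minimum was -0.42 by the second table. Measured against those genes, the members' median was 0.45 higher by the gene tables and 0.39 higher by the second table, and by the latter 39.0% of members and 12.9% of other coding genes were higher, and 36.8% and 68.6% lower. All 53 members higher by the second table were also higher by the gene tables, and all 21 lower by the gene tables were lower by the second. Only 3 members, Zfp445 among them, were called in opposite directions. Members of which 10% or more of the words are shared with other genes had a median log2 ratio of 0.52, and the 97 without them had 0.20, with 53 higher (54.6%) and 16 lower. The difference between KRAB and other members was then 0.23.

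**Figure D4:**
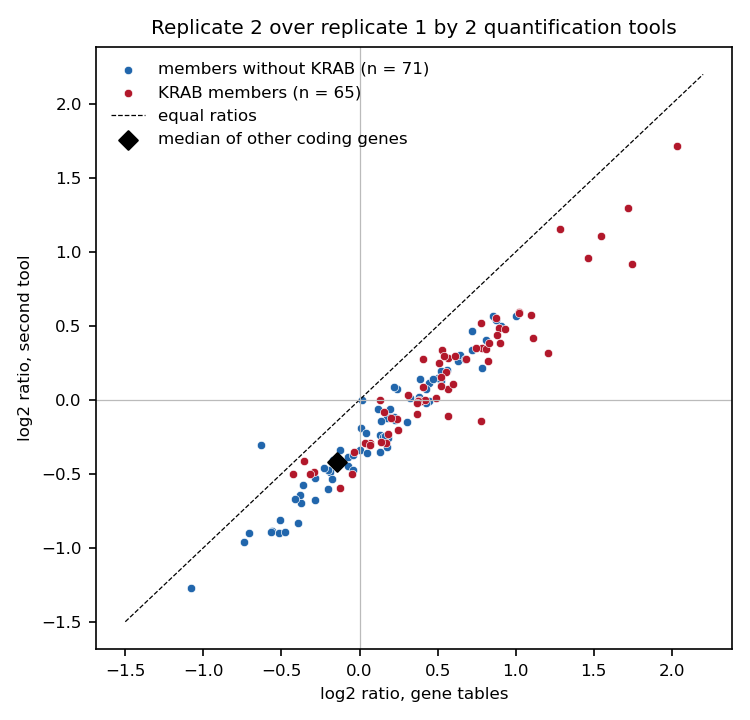
The members' log2 ratio of replicate 2 over replicate 1 by the gene tables (horizontal) and by the second tool (vertical), KRAB members in red and others in blue; the diamond is the median of the other coding genes at the minimum. Nearly all points lie below the dashed line of equal ratios, as does the diamond at -0.14 and -0.42.

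The tools also differed in level. The second table put 110 of the 136 members lower, with a median difference of -0.40 in log2(TPM + 1), beside -0.41 in other coding genes, and ranked members much alike (Spearman's rho 0.83, n = 136). The members it put highest relative to the gene tables were Zfp444 at 12.7 against 4.40 TPM, Zfp180 at 11.1 against 4.28, Zfp995 at 8.37 against 3.10, Zfp991 at 46.2 against 21.3 and Zfp970 at 6.43 against 3.06. Zfp991, which shares most of its words with other genes, was thereby next to the top by that table. Those it put lowest were Zfp263 at 52.6 against 103 TPM, Zfp281 at 12.5 against 24.7, Zfp397 at 7.58 against 14.2, Zfp971 at 5.13 against 9.61 and Zfp445 at 20.4 against 36.0. Zfp263 was still the highest member there, with Zfp991, Zfp207 at 40.9 and Zfp638 at 35.5 TPM after it. The deposited credibility interval of the TPM had a median width of 27.5% of the value in members, beside 22.2% in other coding genes. It was widest in Zfp771, at 3.10 TPM with bounds of 2.57 and 12.7 in replicate 1, and next in Zfp276 and Zfp236. In 121 members the TPM of replicate 2 lay outside the interval of replicate 1, so that interval does not cover the spread in TPM between replicates. The same was not counted in other coding genes, of which 84.0% had a higher TPM in replicate 2. The 121 is therefore not shown to be a trait of members.

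Nuclear RNA holds incompletely spliced transcripts, and the annotation types some as retained intron. Such a transcript exists for 53.7% of members, beside 67.3% of other coding genes at the minimum. In the 73 members that have one, the median share of the gene's TPM on it was 30.7% (29.5% in replicate 1 and 30.8% in replicate 2), beside 27.4% in 4731 other genes (24.0% and 30.4%). In replicate 2 members and other genes thus lay close, and in replicate 1 members were higher. A share of 50% or more was reached by 18 members, 24.7% of those with such a transcript, beside 17.1% of the other genes. By class the median was 27.5% in 27 KRAB members (29.5% in replicate 1 and 22.7% in replicate 2) and 33.2% in 46 others (30.7% and 36.7%), but by the second tool they were 42.1 and 36.6% in KRAB members and 33.2 and 36.2% in others. The order of the classes thus changed with the tool and is not settled.

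Zfp945 had the largest share, 88.2% in replicate 1 and 91.8% in replicate 2, all of it on 2 transcripts. Zfp326 followed with 86.8% and 90.5%, and its coding transcripts held only 7.31% ± 0.055 (SD, n = 2) of its TPM. Both were high in each library and by the second tool, at 91.8% and 79.0%. Zfp523 had 58.2% and 78.2%, Zfp277 58.1% and 73.3%, and Zfp638 59.0% and 67.0%. Zfp672, Zfp512 and Zfp653 had means of 62.4, 62.0 and 61.8%. The replicates were far apart in Zfp653, at 50.7 and 73.0%, and farther in Zfp821, at 33.3 and 62.8%, which was just under 50% in the mean. Among members with such a transcript the smallest shares were in Zfp706 with 0% in both, Zfp426 with 1.31 and 0% and Zfp451 with 1.95 and 2.57%, though the second tool gave Zfp706 18.7%. Over the 73 members the shares of the replicates ranked alike (Spearman's rho 0.88), and share and level were nearly unrelated (0.04). Zfp207 shows another kind of RNA: 46.8% ± 6.00 of its TPM was not on transcripts typed as coding, chiefly on 2 typed as targets of nonsense-mediated decay. One of these, Zfp207-207, had the same length and the same TPM in each library as the coding Zfp207-208, at 6.68 and 15.6, so their RNA was split evenly between the types.

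**Figure D5:**
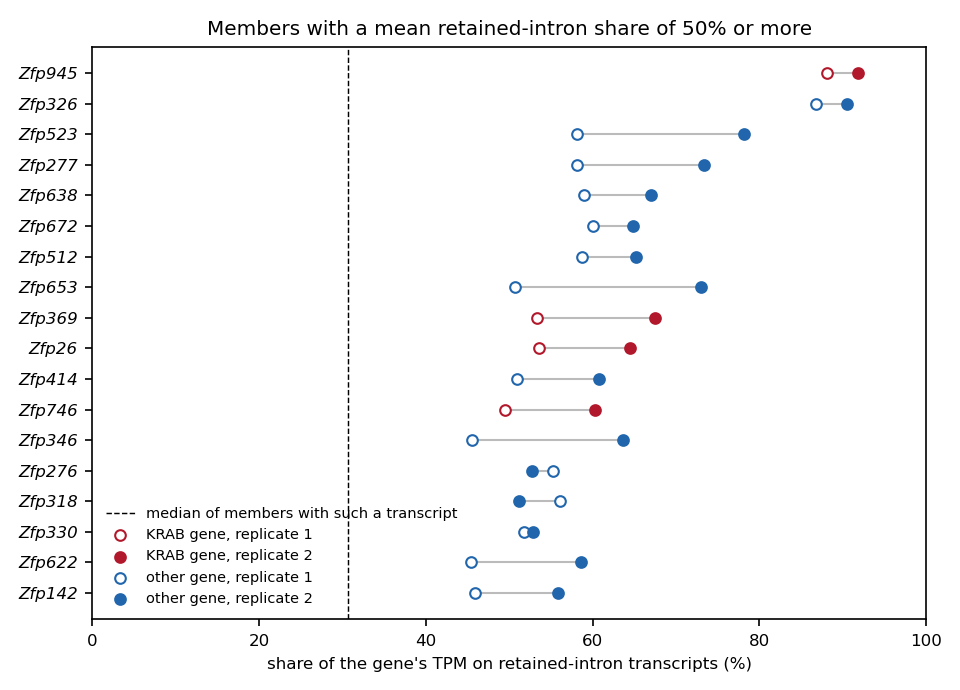
The share of the gene's TPM on retained-intron transcripts (in %) in replicate 1 (open) and replicate 2 (filled) for the 18 members with a mean of 50% or more; the dashed line is the median of the 73 members with such a transcript, 30.7%. Zfp945 and Zfp326 stand apart near 90% in both libraries, and the rest lie between 45 and 79%.

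Promoters were taken from RefSeq (GRCm38.p6) as the 250 bases before and the first 50 after the start, 1 a gene, and were matched by symbol for 117 members. KRAB members had a median of 10.5 CpG dinucleotides in these 300 bases and a GC content of 52.5%, and other members 22 and 61.3%, the same number of CpG as the 5641 other coding genes at the minimum. The coding Zfp genes below the minimum, of both classes, had a median of 11. Of 9 motifs searched on both strands, CCGGAAGT, bound by ETS factors, was the most common in members, in 15 of 117 (12.8%), beside 10.4% of the other coding genes and 4.01% of all 27025 promoters. GCGCATGC (NRF1) was in 6.84% of members and 6.10% of the other coding genes, AAGATGGCG (YY1) in 3.42% and 3.83%, TGACGTCA (CREB) in 3.42% and 3.49%, TGACTCA (AP-1) in 4.27% and 3.37%, TATAAA in 5.98% and 6.58%, and ACTACAATT (ZNF143, the human name of the Zfp143 protein) in 0.855% and 0.780%. These shares lay close to those of other expressed genes. The NF-kB word GGGACTTTC and the interferon response word GAAACTGAA were in 0 of 117 members and in 0.425% and 0.745% of the other coding genes. None of the 9 motifs contains another, and a match is a description of letters only.

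The following promoters show what these words look like in members described above, with the motif in capitals: the ETS word in Zfp263 (chr16:3743849-3744148, plus strand), the YY1 word in Zfp207 (chr11:80383029-80383328, plus strand) and the ETS word in Zfp945 (chr17:22867085-22867384, minus strand).
Zfp263: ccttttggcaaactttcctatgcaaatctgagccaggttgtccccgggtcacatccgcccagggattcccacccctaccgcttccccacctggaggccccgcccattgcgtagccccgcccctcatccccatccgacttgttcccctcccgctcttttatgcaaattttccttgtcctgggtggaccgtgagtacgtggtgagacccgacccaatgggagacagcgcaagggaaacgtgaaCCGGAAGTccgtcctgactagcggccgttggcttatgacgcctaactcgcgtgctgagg
Zfp207: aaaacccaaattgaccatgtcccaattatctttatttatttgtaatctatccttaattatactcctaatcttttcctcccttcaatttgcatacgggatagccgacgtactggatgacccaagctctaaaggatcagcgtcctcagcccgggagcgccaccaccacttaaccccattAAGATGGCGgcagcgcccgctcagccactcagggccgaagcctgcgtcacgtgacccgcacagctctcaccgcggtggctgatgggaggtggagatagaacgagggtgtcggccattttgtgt
Zfp945: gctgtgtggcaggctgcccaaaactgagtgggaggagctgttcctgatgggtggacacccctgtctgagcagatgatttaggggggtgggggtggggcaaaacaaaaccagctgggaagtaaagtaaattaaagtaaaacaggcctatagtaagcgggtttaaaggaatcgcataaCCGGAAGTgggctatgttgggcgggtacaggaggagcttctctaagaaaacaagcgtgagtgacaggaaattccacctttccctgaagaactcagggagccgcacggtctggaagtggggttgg
They hold 20, 17 and 7 CpG dinucleotides, so the KRAB gene Zfp945 is below and the others are near or above the median of members, which is 16.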

How the data were processed

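Nuclear RNA of 2 libraries of 1 group was analysed. The authors' gene tables, and their transcript tables, hold expected counts and TPM (deposited; mm10 with GENCODE M21, per the file headers); the deposited credibility bounds are on the TPM scale and were used as a signal. A second deposited transcript table holds estimated counts and TPM. Tools and versions are not given in the sources used here. Rows naming no mouse gene (1.79% and 0.318% of counts) were left out. Counts were rounded, scaled by TMM (edgeR 4.0.16, R 4.3.3) and compared per gene with an exact two-sided binomial test, adjusted by Benjamini-Hochberg over genes whose mean count reached 10, at a threshold of 0.05, with a prior count of 0.5 for ratios. No contrast leaves residual degrees of freedom, so no quasi-likelihood test was run. KRAB and SCAN domains were called with HMMER 3.4 profiles (E-value 1e-05) on translated coding sequences. The KRAB profile was built from 77 windows of 40 residues that matched a sequence pattern in the same translations. A KRAB domain that it missed counts as absent. DESeq2 1.42.0 size factors were an alternative. A gene of the silencing partners is not reported here by name. Members and lists were chosen with earlier results of these data known. Named were the highest members, those beside the minimum, the largest ratios and retained-intron shares, listed roles, runs, differences between tools, and finger and interval extremes. Promoter motifs and shared words were chosen after the values were seen, and so were the alternatives that use other coding genes as the reference or leave out members with shared words.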

Additional observations from a re-analysis of the deposited data

How the results depend on the processing

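No paired analysis was possible because there is 1 group, so no replicate numbers are shared between groups. Leaving out each replicate in turn gave 102 to 163 members, a median level of 4.08 to 8.11 TPM, a median retained-intron share of 29.5 to 30.8%, a difference of -0.57 to -0.29 between KRAB and other members in log2 level, and a median of 7.79 to 13.1 TPM for the silencing partners. Rescaled TPM gave 245 members and, for the chosen ones, a median of 23.7 TPM. Scaling by library size left 13 members lower in replicate 2, and it shifted the median log2 ratio of all genes by 0.17. Without the count filter the members' median log2 ratio was 0.34, and at a mean count of 100 or more 0.36, with a retained-intron share of 29.5%. The second tool gave 53 members higher and 50 lower and turned the median log2 ratio to -0.024. It gave a retained-intron share of 34.5%, a level difference of -0.23 between KRAB and other members and a ratio difference of 0.32. Of the alternatives chosen after seeing the data, the median ratio was 0.45 relative to other coding genes, 0.39 so by the second tool, and 0.20 without members sharing 10% of their words. In that last set 53 members were higher and the difference between KRAB and other members in ratio was 0.23. Over all results, the settings chosen at the outset left 29 values labelled as the same, moved 12 and reversed 1. A median log2 ratio was labelled as moved if it changed after rounding, even on the same side. Some of the 29 could not move. The median log2 ratio is relative to all genes, so a change of scaling cancels out. The level difference between KRAB and other members is a mean over the libraries, so leaving out either stays within its SD. The cause was not tested, apart from fewer genes or members entering. As to depth, 131 of the 136 members had a mean count of 100 or more.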
